A study of Mus musculus with 6 samples.

Results

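The metabotropic glutamate receptor genes Grm2, Grm3, Grm4, Grm5, Grm6, Grm7 and Grm8 were followed in cerebral cortex of adult mice. They were taken by name, 7 of the 55450 genes in the count tables. The 6 libraries of polyadenylated RNA comprise 3 of Setd5 heterozygous animals, Setd5 being the gene of a SET-domain chromatin protein, and 3 of wild type animals. The labels name no allele, strain, sex or further treatment for either group. Nor do they tell separate animals from repeat preparations, so a p-value covers library-to-library spread, part of which may be technical.

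Metabotropic receptors are G protein-coupled receptors that bind glutamate in a large extracellular domain and work as dimers. They fall into 3 groups. Group I receptors, here Grm5, couple to Gq and phospholipase C and sit mostly at the edge of the postsynaptic membrane. Group II (Grm2 and Grm3) and group III (Grm4, Grm6, Grm7 and Grm8) couple to Gi/o, and in cortex many of them restrain transmitter release from axon terminals. Grm3 is also a receptor of astrocytes and responds to the peptide N-acetylaspartylglutamate, while Grm6 is known from ON bipolar cells of the retina.

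Library totals ran from 82850628 to 92860628 counts. Setd5 itself, in counts scaled to 1000000 per library (CPM), had a mean of 71.2 ± 3.6 for the heterozygous and 105 ± 7.35 for the wild type libraries (SD, n = 3 each). The groups did not overlap, and its adjusted p by edgeR's quasi-likelihood test was 0.258. Summed CPM of 6 excitatory neuron markers ran from 4379 to 4956 in heterozygous and from 4631 to 4797 in wild type libraries, and all 6 were detected in every library. The 7 markers of striatal projection neurons were uneven, with sums of 267, 341 and 554 CPM in heterozygous replicates 1, 2 and 3, against 172, 333 and 1240.3 CPM in wild type replicates 1, 2 and 3. Wild type replicate 3, which is also titled in another style than the other 5 libraries, therefore stands apart, and log2 differences of receptors and named pathway genes that moved by over 1.5 times without it are also given without it. Heterozygous replicate 3 and wild type replicate 3 had high Xist counts (865 and 784 CPM), and the other 4 libraries had under 1 CPM.

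The level of each receptor relative to the others was read per length, as CPM divided by the kilobases of annotated exon (RPKM). Grm3 was the most abundant, at 26.7 ± 0.966 RPKM in heterozygous and 30.6 ± 1.36 RPKM in wild type cortex (SD, n = 3 each, as for all levels below). Grm5 was at 21.1 ± 0.544 and 23.1 ± 2.11 RPKM. Grm7, a presynaptic receptor of the active zone with low affinity for glutamate, was at 10.8 ± 0.222 and 10.1 ± 0.392 RPKM. Among the 16251 protein-coding genes tested, these 3 receptors stood high, Grm3 at percentile 92.1, Grm5 at 88.9 and Grm7 at 74.9. Grm2, which in cortex acts mainly as a presynaptic autoreceptor, was at 6.57 ± 0.516 and 6.17 ± 0.788 RPKM.

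Grm4, best known from parallel fibre terminals of the cerebellum, was at 2.3 ± 0.107 RPKM in heterozygous and 2.45 ± 0.53 RPKM in wild type cortex. Grm8, a presynaptic receptor of high glutamate affinity, was at 2.09 ± 0.234 and 1.96 ± 0.335 RPKM, and the libraries of these 2 receptors overlapped within each genotype. Grm6 closed the order at 0.0106 ± 0.00439 and 0.00999 ± 0.0068 RPKM. The order depends in 2 places on the length used. Over the longest annotated transcript in place of all exons, Grm5 was at 26.9 ± 0.692 and 29.4 ± 2.69 RPKM, within the spread of Grm3, and Grm8 stood above Grm4, at 4.31 ± 0.483 and 4.04 ± 0.691 RPKM for Grm8, against 2.98 ± 0.139 and 3.18 ± 0.687 RPKM for Grm4.

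The genes differ widely in extent. In GRCm38 coordinates Grm7 covers 921.6 kb of chromosome 6 from 110645581 to 111567230 on the plus strand, Grm8 860.1 kb of the same chromosome from 27275119 to 28135178 on the minus strand, and Grm5 550.7 kb of chromosome 7 from 87584168 to 88134907 on the plus strand. Grm3 covers 239.6 kb of chromosome 5 from 9485541 to 9725170 on the minus strand and Grm4 99.0 kb of chromosome 17 from 27422387 to 27521403 on the minus strand. The other 2 genes are compact. Grm6 takes 15.5 kb of chromosome 11 from 50850685 to 50866208 on the plus strand, and Grm2 12988 bases of chromosome 9 from 106643095 to 106656082 on the minus strand. Grm7 ends 1.51 Mb before the start of Setd5, whereas Grm8 lies 84.94 Mb from it.

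The 250 bases before the most upstream start that RefSeq gives are shown for Grm3 and Grm7, whose parts of the receptor pool separated the genotypes below, and for Grm6, which was close to silent. They are RefSeq sequences of GRCm38.p6, written 5′ to 3′ along the gene, with every CG pair in capitals. The windows are chr5:9725353-9725602 on the minus strand for Grm3, chr6:110645262-110645511 on the plus strand for Grm7 and chr11:50850435-50850684 on the plus strand for Grm6. Relative to the GENCODE gene start, the RefSeq start lies at -182 bases for Grm3, -69 for Grm7 and 0 for Grm6 (negative is upstream). The Grm3 and Grm7 windows thus do not adjoin the GENCODE start.
Grm3: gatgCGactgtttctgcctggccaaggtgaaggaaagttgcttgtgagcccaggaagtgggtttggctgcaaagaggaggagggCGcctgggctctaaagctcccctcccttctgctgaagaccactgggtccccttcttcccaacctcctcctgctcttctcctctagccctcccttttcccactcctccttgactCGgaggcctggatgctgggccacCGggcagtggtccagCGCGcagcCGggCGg
Grm7: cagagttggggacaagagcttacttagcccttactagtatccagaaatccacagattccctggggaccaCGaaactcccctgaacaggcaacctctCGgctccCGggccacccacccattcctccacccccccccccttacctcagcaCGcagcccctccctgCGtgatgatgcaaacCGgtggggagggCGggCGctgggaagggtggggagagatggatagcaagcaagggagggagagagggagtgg
Grm6: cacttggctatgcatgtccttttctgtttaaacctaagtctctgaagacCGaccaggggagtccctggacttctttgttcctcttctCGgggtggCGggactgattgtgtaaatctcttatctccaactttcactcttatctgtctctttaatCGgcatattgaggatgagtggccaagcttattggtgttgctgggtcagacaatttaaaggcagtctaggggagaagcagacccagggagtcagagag

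Each of the Grm3 and Grm7 windows held 8 CG pairs, and the Grm6 window held 4. In the same window Grm2 had 16 and Grm8 29, and the table matched 5 of the 7 receptors. The median over one window for each of 27025 genes was 6, and 91.7% of them held at least 1 CG. The GC box GGGCGG, which itself contains a CG pair, was searched on both strands and occurred in the windows of Grm2, Grm3, Grm7 and Grm8 and not in that of Grm6, where 33.0% of all windows held it. The order of CG counts did not follow the order of levels, since Grm8 had the most CG pairs and, with Grm4, the lowest level among the 6 expressed receptors.

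**Figure D1:**
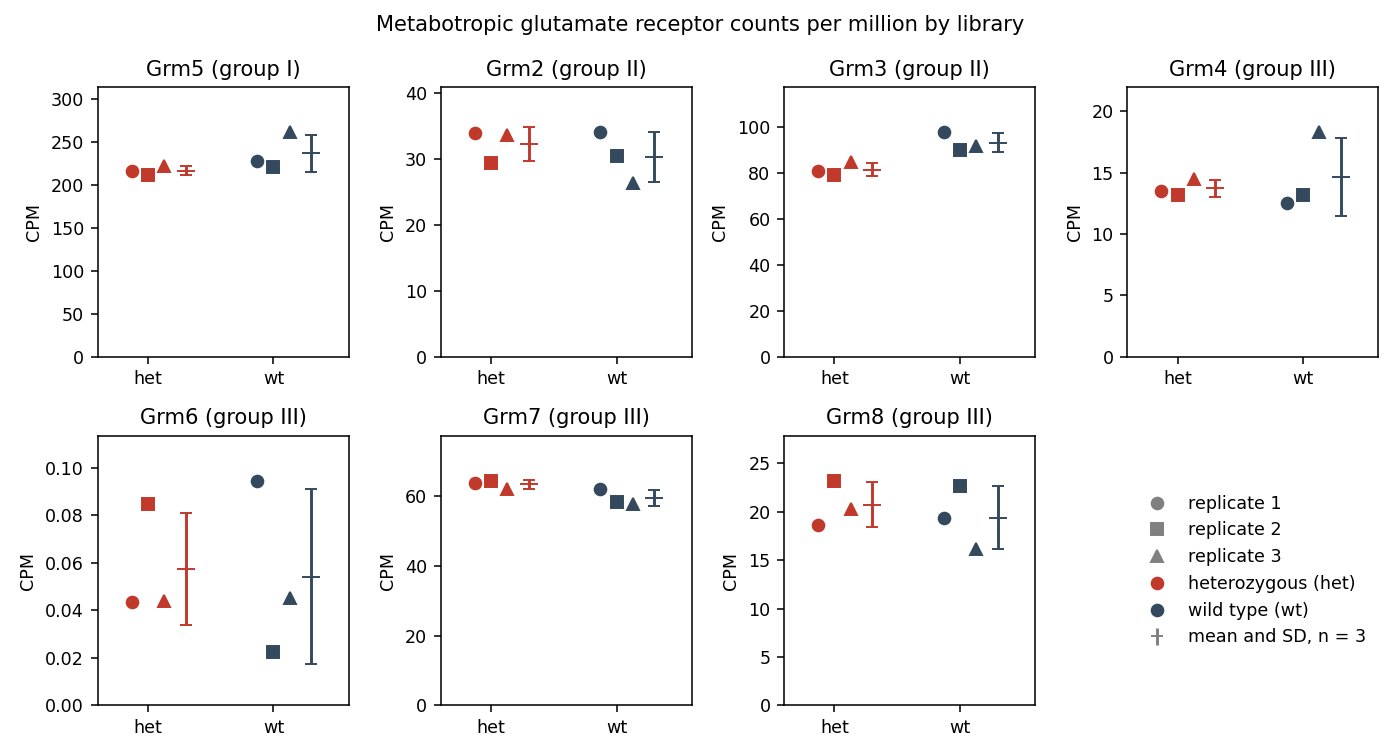
CPM (vertical axes, each from 0) of the 7 receptors in 3 heterozygous (red, left) and 3 wild type libraries (dark, right), with the group mean and SD beside the points. For Grm3 the heterozygous libraries lie between 79 and 84.7 CPM, all below the wild type libraries at 89.9 to 97.8 CPM, and for the other 6 receptors the groups overlap.

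Across all 27939 genes tested with edgeR's quasi-likelihood test, 0 were called higher and 0 lower at a Benjamini-Hochberg adjusted p under 0.05, or 0% in each direction, and the receptors were among the genes not called. Of the 6 receptors that passed the filter on low counts, 1 stood at an unadjusted p under 0.05, where 5.83% of all genes tested did (2.44% higher and 3.38% lower). That 1 was Grm3, which was also the only one of the 6 whose groups did not overlap, against 11.7% of all genes tested (5.88% higher and 5.85% lower). A share of 1 in 6 cannot be set apart from either background. DESeq2 called 16 genes higher and 46 lower, or 0.0648% and 0.186% of those it tested, and no receptor was among them.

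Grm5, the group I receptor and the postsynaptic partner of Homer scaffolds, had 216, 211 and 222 CPM in heterozygous replicates 1, 2 and 3, against 227, 221 and 261 CPM in wild type replicates 1, 2 and 3. Heterozygous replicate 3 lay just above wild type replicate 2, so the groups touched, and wild type replicate 3 was the highest of all. The log2 difference (heterozygous minus wild type, as in all that follow) was -0.13 with a standard error (SE) of 0.08 and a 95% interval from -0.30 to 0.04. The adjusted p by edgeR was 0.866, and without wild type replicate 3 the difference was -0.05. That library also had the highest summed level of striatal markers, a region in which Grm5 is known to be abundant. With the striatal marker level as a covariate the difference was -0.11. The part of the markers in the difference was not tested. Wild type replicate 3 also had high Xist counts, and these traits of the library cannot be told apart.

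Grm2, the first of the group II receptors, had 33.8, 29.3 and 33.5 CPM in heterozygous replicates 1, 2 and 3, against 34, 30.4 and 26.3 CPM in wild type replicates 1, 2 and 3. The highest and the lowest library were both wild type. The log2 difference was 0.09 (SE 0.10, 95% interval -0.14 to 0.32, adjusted p by edgeR 0.918). Without wild type replicate 3, the lowest, it was 0.00018. An annotated antisense gene, Gm28111, shares 470 bases with the exons of Grm2, or 9.6% of them, and the library kit does not mark strand. Gm28111 had 12 to 42 counts in a library, against 2318 to 3103 for Grm2.

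Grm3, the other group II receptor, had 80.9, 79 and 84.7 CPM in heterozygous replicates 1, 2 and 3, against 97.8, 89.9 and 91.9 CPM in wild type replicates 1, 2 and 3. Every heterozygous library lay below every wild type library. The heterozygous mean, 81.5 ± 2.94 CPM, was 87.5% of the wild type mean, 93.2 ± 4.14 CPM (SD, n = 3 each). The log2 difference was -0.19 (SE 0.06, 95% interval -0.33 to -0.05). Its unadjusted p of 0.0114 ranked 389 of 27939, and its adjusted p by edgeR was 0.81, which did not pass. Exact permutation of the libraries, two-sided, gave p = 0.1 for the CPM values, the smallest that 3 libraries against 3 can give. Over the alternative fits the log2 difference of Grm3 ran from -0.23 to -0.16, with the adjusted p from 0.438 to 1.

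The summed level of astrocyte markers differed between the groups in the same direction as Grm3. All 6 markers were detected in every library. Their summed CPM was 1729 to 1854 for the heterozygous and 1890.3 to 1963 for the wild type libraries, with no overlap. Their mean log2 level, relative to the wild type mean, did overlap. It was -0.18, -0.14 and -0.04 in heterozygous and -0.05, 0.05 and 0.01 in wild type replicates 1, 2 and 3. Aqp4, the water channel of astrocyte endfeet, had 131, 131 and 154 CPM in heterozygous replicates 1, 2 and 3, against 164, 170.0 and 172 CPM in wild type replicates 1, 2 and 3, without overlap. Gja1, the gap junction protein connexin 43, had 193, 216 and 223 CPM, against 237, 237 and 252 CPM. Aldoc, a glycolytic enzyme, differed little, with 675, 685 and 652 CPM in heterozygous and 659.9, 652 and 718 CPM in wild type replicates 1, 2 and 3. The log2 differences were -0.28 (SE 0.08) for Aqp4, -0.20 (SE 0.07) for Gja1, -0.12 (SE 0.07) for Slc1a3, a glutamate transporter of astrocytes, -0.07 (SE 0.16) for the filament protein gene Gfap, -0.05 (SE 0.08) for the folate enzyme gene Aldh1l1 and -0.01 (SE 0.07) for Aldoc. None of the 6 passed the adjusted threshold of edgeR (lowest adjusted p 0.789), and the groups overlapped for all but Aqp4 and Gja1.

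Set against these genes within each library, Grm3 was not uniformly lower. The mean log2 ratio of Grm3 to Gja1 was -1.37 in heterozygous and -1.38 in wild type cortex, with overlapping groups. The ratio of Grm3 to Slc1a3 was -2.85 and -2.77. It was lower in each heterozygous library, but heterozygous replicate 1 and wild type replicate 3 both round to -2.79. The ratio to Aldoc was -3.04 and -2.86, with overlap. For Aqp4 the ratio was the higher in heterozygous cortex, at -0.76 against -0.86. For Aldh1l1 it was 0.74 against 0.88 and for Gfap -0.69 against -0.56. The groups overlapped for these genes too. With the mean log2 level of the 6 markers as a covariate, an alternative chosen after seeing the data, the log2 difference of Grm3 was -0.20 with an SE of 0.104 and an unadjusted p of 0.0938 by edgeR. Endothelial markers summed to 111 to 117 CPM in heterozygous and 120.0 to 127 CPM in wild type libraries, lower without overlap as well. So were those of meningeal fibroblasts, at 28.7 to 30.9 and 31.5 to 67.7 CPM, with wild type replicate 3 (31.5) close to the heterozygous libraries. Sums of all other marker lists overlapped. Those of oligodendrocytes were 9409 to 13792 and 7718 to 10109 CPM, and those of microglia 219 to 244 and 239 to 275 CPM. The part of these cell types in the Grm3 difference was not tested. In bulk tissue fewer cells of a type and less RNA per cell cannot be told apart.

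**Figure D2:**
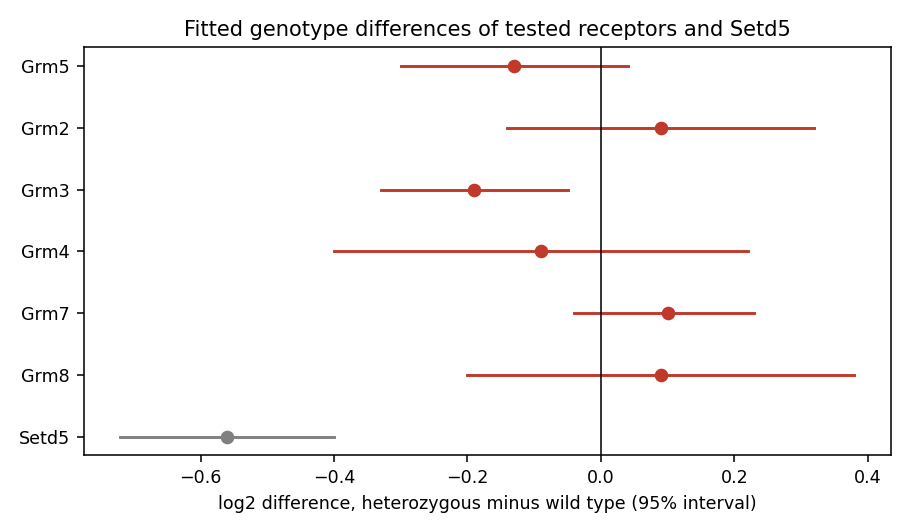
Fitted log2 difference, heterozygous minus wild type, with its 95% interval, for the 6 receptors tested (red) and for Setd5 (grey). Of the receptors, the interval of Grm3 (-0.33 to -0.05) leaves out 0 and those of the other 5 include it, and all of the receptor estimates lie between -0.19 and 0.10, against -0.56 for Setd5.

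Among the group III receptors Grm7 was the most abundant. It had 64, 64.5 and 62 CPM in heterozygous replicates 1, 2 and 3, against 62.1, 58.5 and 57.8 CPM in wild type replicates 1, 2 and 3. The groups met at heterozygous replicate 3 and wild type replicate 1. The log2 difference was 0.10 (SE 0.06, 95% interval -0.04 to 0.23, adjusted p by edgeR 0.873), and it kept its sign in all 19 alternative fits, from 0.03 to 0.13. An antisense gene, Gm20387, shares 130 bases with the exons of Grm7, or 2.21% of them, and had 448 to 591 counts in a library.

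Grm4 had 13.5, 13.2 and 14.5 CPM in heterozygous replicates 1, 2 and 3, against 12.5, 13.2 and 18.3 CPM in wild type replicates 1, 2 and 3. Wild type replicate 3 was the highest, and the remaining 5 libraries lay within 2 CPM of each other. The log2 difference was -0.09 (SE 0.14, adjusted p by edgeR 0.94), and without wild type replicate 3 it was 0.10. That library was also the highest in striatal markers, and the markers of cerebellar granule neurons, the cells best known for Grm4, summed to under 1 CPM in every library. With the striatal marker level as a covariate the difference was -0.03, and the part of the markers in it was not tested.

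Grm8 had 18.6, 23.2 and 20.3 CPM in heterozygous replicates 1, 2 and 3, against 19.4, 22.7 and 16.1 CPM in wild type replicates 1, 2 and 3. The groups overlapped almost wholly, and the lowest library was wild type replicate 3. The log2 difference was 0.09 (SE 0.13, 95% interval -0.20 to 0.38, adjusted p by edgeR 0.935), and it was -0.03 without wild type replicate 3.

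Grm6 had 4, 7 and 4 counts in heterozygous replicates 1, 2 and 3, against 8, 2 and 4 counts in wild type replicates 1, 2 and 3, or 15 and 14 counts in all. It did not pass the filter on low counts. A count of 0 would allow a level of up to 0.0323 to 0.0362 CPM, depending on the library, and Grm6 stood at 0.0225 to 0.0946 CPM, so its level is at or little above what this depth can detect. No difference was detectable, with a log2 difference of 0.07 (SE 0.99) when every gene with a count was tested. The 5 markers of retinal ON bipolar cells, among which Trpm1 is the channel that Grm6 controls, summed to 1.51 to 1.68 CPM for the heterozygous and 1.46 to 1.97 CPM for the wild type libraries, and all 5 were detected in every library.

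**Figure D3:**
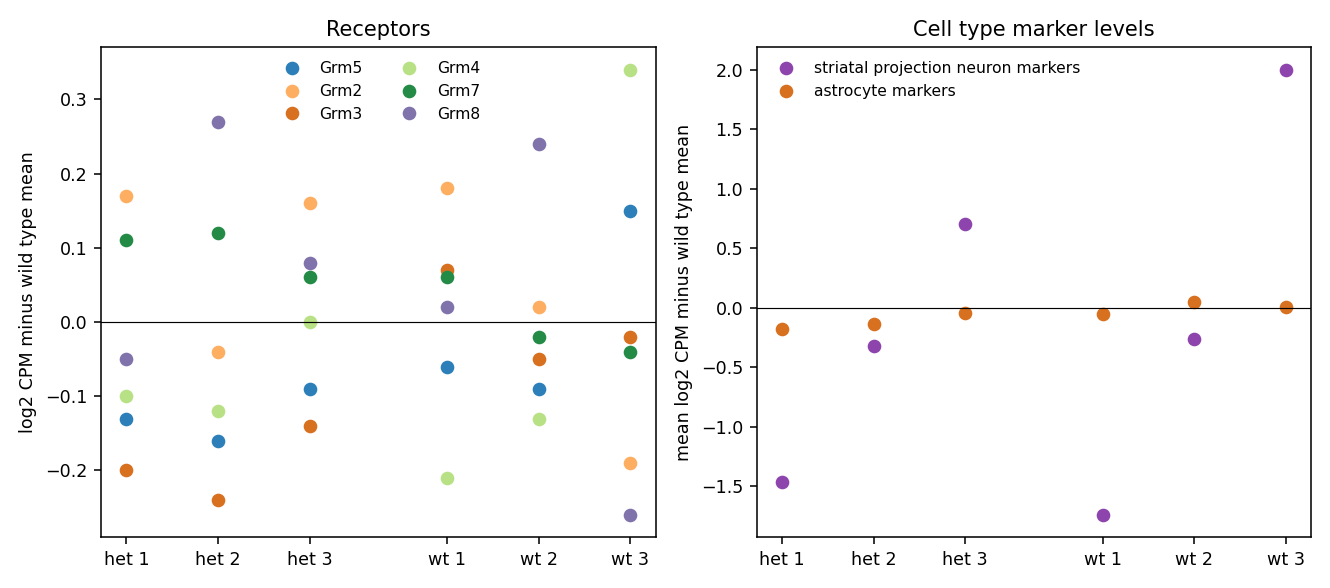
Level of each tested receptor (left, log2 CPM) and mean level of striatal and astrocyte markers (right, mean log2 CPM) in every library, each relative to the wild type mean. In wild type replicate 3 Grm4 (0.34) and Grm5 (0.15) lie highest and Grm8 (-0.26) and Grm2 (-0.19) lowest, and the striatal marker level is at 2.00, while Grm3 lies between -0.24 and -0.14 in heterozygous and between -0.05 and 0.07 in wild type libraries.

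The receptors were next compared within each library, as a share of the summed counts per kilobase of exon of all 7, which does not depend on scaling between libraries. The sum of the 7 in RPKM, unlike the shares, does depend on that scaling and on the exon lengths. It was 69.5, 68 and 71.3 RPKM in heterozygous replicates 1 to 3, against 75.8, 71.7 and 75.5 in wild type replicates 1 to 3. The groups did not overlap, but heterozygous replicate 3 lay just below wild type replicate 2. The two-sided exact permutation p was 0.1, the smallest possible. Other scalings and lengths were not tried for this sum. The sum and the 3 ratios below form a family of 4, over which an exact permutation p of 0.1 becomes 0.2 after Benjamini-Hochberg adjustment, and over the 10 shares (7 receptors and 3 groups) it becomes 0.333. Grm3 and Grm5 together make up most of this pool, so the sum and the shares carry the Grm3 values given above and are not separate evidence.

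Group III took 21.6%, 22.9% and 21.1% of the pool in heterozygous replicates 1, 2 and 3, against 19.3%, 20.1% and 19.2% in wild type replicates 1, 2 and 3. Each heterozygous share exceeded each wild type share, with a difference of 2.3 percentage points (exact permutation p = 0.1, two-sided, for n = 3 each). Most of it lay in Grm7, whose share was 15.6%, 16.1% and 14.8% in heterozygous and 13.9%, 13.9% and 13% in wild type replicates 1, 2 and 3, again without overlap (exact permutation p = 0.1). Grm3 took 38.2%, 38.1% and 39% in heterozygous replicates, against 42.3%, 41.1% and 39.9% in wild type replicates, a difference of -2.68 points (exact permutation p = 0.1). Group II as a whole overlapped, at 47.9% ± 0.864 and 49.4% ± 2.26, since Grm2 had the larger mean share in heterozygous libraries (9.44% ± 0.581 against 8.31% ± 1.07). Group I, which is Grm5 here, was at 30.3% ± 0.0549 and 31.1% ± 2.41. The wide wild type spread came with replicate 3 at 33.8%, and without that library the Grm5 difference was 0.61 points in place of -0.75.

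The remaining receptors held small shares. Grm4 was at 3.3% ± 0.0805 in heterozygous and 3.29% ± 0.676 in wild type libraries, and Grm8 at 3.01% ± 0.389 and 2.65% ± 0.526, both with overlapping groups. Grm6 was at 0.0153% ± 0.00669 and 0.0133% ± 0.00884.

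Ratios between receptors were examined for 3 pairs. The log2 ratio of Grm2 to Grm3 counts was -1.26, -1.43 and -1.34 in heterozygous replicates 1, 2 and 3, against -1.52, -1.56 and -1.80 in wild type replicates 1, 2 and 3. Each heterozygous ratio thus lay above each wild type ratio, by 0.29 on average (exact permutation p = 0.1, two-sided). Without wild type replicate 3 the difference was 0.20. Grm3 counts exceeded Grm2 counts in every library. This ratio carries the Grm3 values given above and is not separate evidence. The log2 ratio of Grm7 to Grm8 was 1.62 ± 0.15 in heterozygous and 1.63 ± 0.24 in wild type cortex (exact permutation p = 1). That of Grm5 to Grm3 was 1.41 ± 0.02 and 1.34 ± 0.15 (exact permutation p = 0.6).

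**Figure D4:**
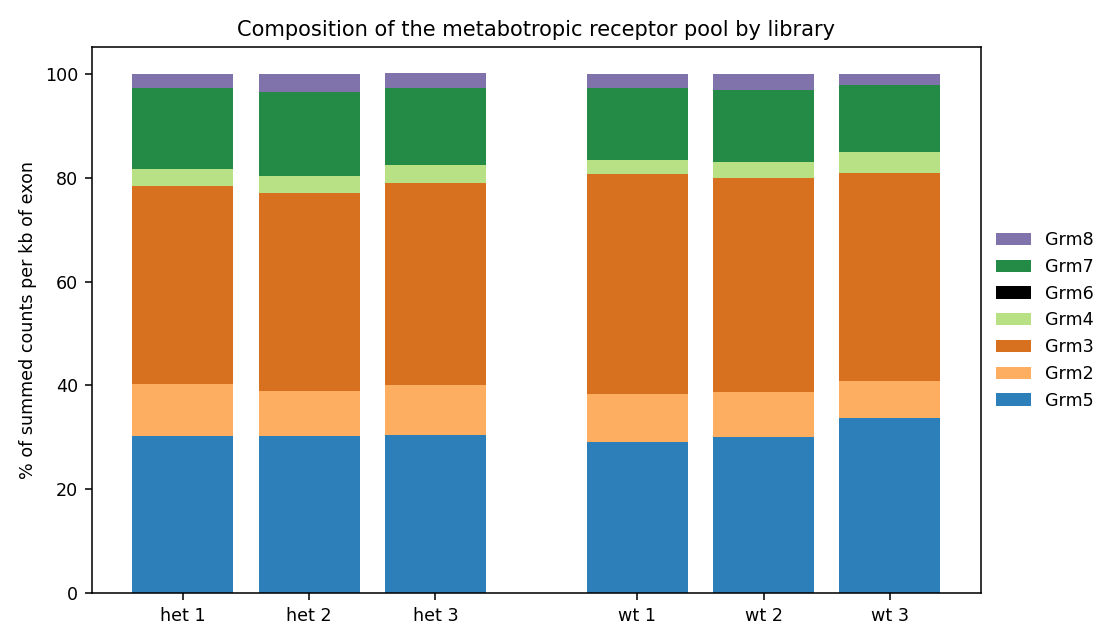
Share of each receptor in the summed counts per kilobase of exon of the 7 genes (vertical axis, percent), stacked by library with the 3 heterozygous libraries (het) left of the 3 wild type libraries (wt). Grm3 fills 38.1% to 39% of the bar in heterozygous and 39.9% to 42.3% in wild type libraries, Grm7 14.8% to 16.1% and 13% to 13.9%, and Grm6 is too small to be seen.

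Genes that carry the receptors' signals were taken from 7 lists with 86 genes, all of which passed the filter. No list gene was called by edgeR, higher or lower. At an unadjusted p under 0.05 there were 2 higher and 4 lower, or 6.98% against the 5.83% of all genes, and 11 had groups that did not overlap, or 12.8% against 11.7%. The pathway as a whole thus lay near the background on both counts. The median log2 difference over all genes tested was -0.001.

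The transduction genes of group I receptors, the Gq and phospholipase C pathway with its calcium and lipid effectors, had 0 of 16 called and 2 lower at an unadjusted p under 0.05, with a median log2 difference of -0.06. Plcb3, a phospholipase C, had 6.29, 7.14 and 7.23 CPM in heterozygous replicates 1, 2 and 3, against 9.06, 8 and 8.46 CPM in wild type replicates 1, 2 and 3. Its groups did not overlap (log2 difference -0.30, SE 0.10, adjusted p by edgeR 0.828). Trpc5, a cation channel opened downstream of Gq, differed by -0.41 (SE 0.15) with 1 overlapping library, and Prkca, a protein kinase C, by -0.19 (SE 0.09).

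Scaffolds of group I receptors had 0 of 8 called, with 1 higher at an unadjusted p under 0.05 and a median of 0.09. Frmpd4, which links Grm5 to Homer and PSD-95, had 112, 114 and 114 CPM in heterozygous replicates 1, 2 and 3, against 99.8, 106 and 98.6 CPM in wild type replicates 1, 2 and 3, with no overlap (log2 difference 0.16, SE 0.06, adjusted p by edgeR 0.828). Cyth2, an exchange factor for ARF proteins, differed by 0.10 (SE 0.06). Homer1, the main Grm5 scaffold, had 601, 536 and 397 CPM in heterozygous replicates 1, 2 and 3, against 439, 445 and 345 CPM in wild type replicates 1, 2 and 3. Homer1 overlapped between groups and differed by 0.32 (SE 0.15), or by 0.21 without wild type replicate 3. It yields both the long scaffold and the short activity-induced form Homer1a, which gene counts do not separate.

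The Gi/o transduction genes used by groups II and III had 0 of 19 called and 0 at an unadjusted p under 0.05 in either direction, with a median of -0.03. The inhibitory G protein subunit genes gave 0.19 (SE 0.09) for Gnai3, or 0.10 without wild type replicate 3, and -0.11 (SE 0.06) for Gnai2, and neither passed. Adcy5, the adenylyl cyclase of striatal neurons, had 63, 69.7 and 109 CPM in heterozygous replicates 1, 2 and 3, against 73.7, 88.3 and 249.7 CPM in wild type replicates 1, 2 and 3. Its difference of -0.77 (SE 0.41) was -0.01 (SE 0.19) without wild type replicate 3, the library highest in striatal markers. The list drawn up for partners of group III receptors had 0 of 7 called and a median of 0.02. Elfn1 and Elfn2, adhesion proteins that recruit group III receptors across the synapse, differed by -0.20 (SE 0.11) and -0.10 (SE 0.10, or -0.03 without wild type replicate 3). The PDZ scaffold Slc9a3r2, on the same list, differed by 0.08 (SE 0.07). Whether Slc9a3r2 binds group III receptors was not examined.

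Kinases, arrestins and RGS proteins that end receptor signals had 0 of 14 called, with 1 higher and 1 lower at an unadjusted p under 0.05 and a median of -0.03. Grk5, a receptor kinase, had 16, 16.5 and 16.9 CPM in heterozygous replicates 1, 2 and 3, against 22.5, 20.1 and 20.8 CPM in wild type replicates 1, 2 and 3. Each heterozygous library lay below each wild type library (log2 difference -0.36, SE 0.08, adjusted p by edgeR 0.719), and DESeq2 called the gene with an adjusted p of 0.0412. Rgs2, which speeds GTP hydrolysis by Gq, had 71.8, 73.1 and 67.6 CPM, against 61.6, 63.2 and 63.3 CPM, also without overlap (log2 difference 0.18, SE 0.06, adjusted p by edgeR 0.828). Arrb1, an arrestin, differed by -0.14 (SE 0.08), or by -0.06 without wild type replicate 3.

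Genes that supply and clear the agonists glutamate and N-acetylaspartylglutamate had 0 of 14 called, with 1 lower at an unadjusted p under 0.05 and a median of -0.0046. That 1 was Slc7a11, the cystine-glutamate exchanger that feeds extrasynaptic glutamate to group II receptors, at 77, 79.2 and 73.2 CPM in heterozygous replicates 1, 2 and 3, against 106, 93.8 and 77.1 CPM in wild type replicates 1, 2 and 3. Its groups overlapped at a single library (log2 difference -0.27, SE 0.10, adjusted p by edgeR 0.838). Without wild type replicate 1 the difference was -0.16. Slc17a6, a vesicular glutamate transporter, differed by 0.19 (SE 0.10), or by 0.29 without wild type replicate 3, and Slc1a3 by -0.12 (SE 0.07). Effectors of the long-term depression that group I receptors set off had 0 of 8 called and a median of 0.01. The immediate early gene Arc spanned 419.8, 380.2 and 159.7 CPM in heterozygous replicates 1, 2 and 3 and 269, 127 and 66.3 CPM in wild type replicates 1, 2 and 3, with a difference of 1.05 (SE 0.47, adjusted p by edgeR 0.855), or of 0.69 without wild type replicate 3. The phosphatase Ptpn5, also known as STEP and rich in striatum, differed by -0.30 (SE 0.19), and by 0.02 without wild type replicate 3. The elongation factor Eef2 differed by -0.10 (SE 0.07), and by -0.05 without that library.

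**Figure D5:**
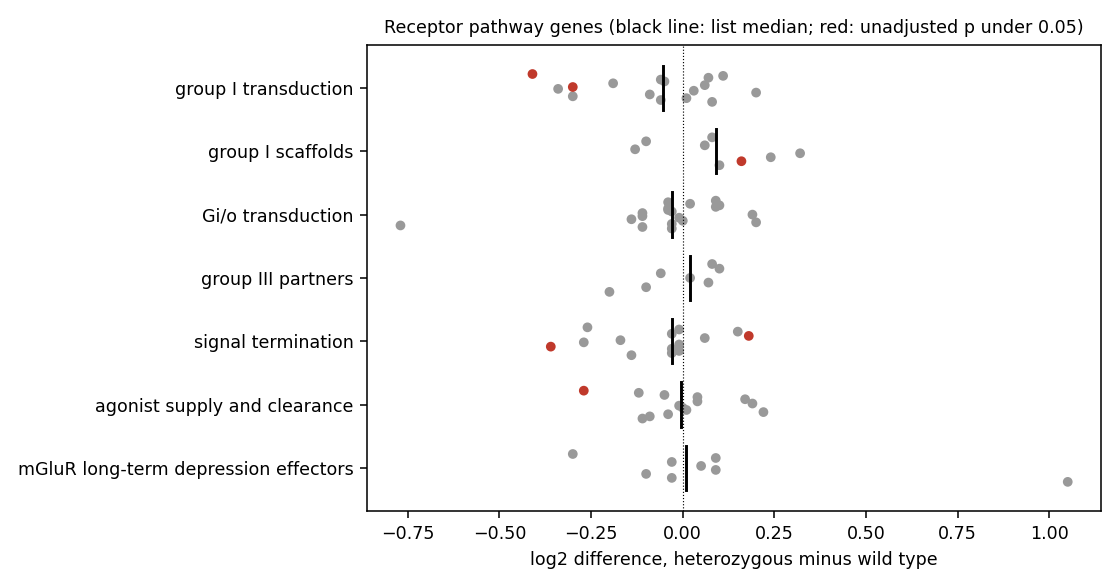
Log2 differences, heterozygous minus wild type, of the 86 pathway genes in 7 lists, with list medians as black lines and genes at an unadjusted p under 0.05 in red. The medians lie between -0.06 and 0.09, and the 2 points farthest from 0 are Arc (1.05) and Adcy5 (-0.77).

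The genes whose log2 CPM followed each receptor most closely over the 6 libraries were sought by Pearson's r among 13657 candidates and are given as a description. Grm3 ran closest to Cspg5, a brain proteoglycan (Pearson r = 0.995, Spearman rho = 1.00), and Tmem229a (r = 0.994). Grm5 ran closest to Agpat1, an enzyme of phospholipid synthesis (r = 0.997), and Men1, which encodes menin (r = 0.995). For Grm2 they were Col26a1, a collagen (r = 0.989), and Myo19, a mitochondrial myosin (r = 0.979). Such values are common with 6 points, since 44 candidates exceeded r = 0.95 for Grm3, 145 for Grm5 and 19 for Grm2.

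For Grm4 the closest were Cox10, an enzyme of haem A synthesis (r = 0.999), and Vsig10 (r = 0.997), and 150 candidates exceeded 0.95. For Grm7 they were Umps, an enzyme of pyrimidine synthesis (r = 0.993), and the splicing-associated kinase Prpf4b (r = 0.992), with 92 over 0.95. Grm8 was followed by Iscu, an iron-sulfur cluster scaffold (r = 0.990), and Chtop, an mRNA export factor (r = 0.989), with 35 over 0.95. All points share their library, and with it the striatal marker level and the genotype.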

How the data were processed

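Each library has 1 deposited table of counts per gene, not normalized. The submitters' processing notes name Bowtie2 2.3.4.3, FastQC, DESeq2 and featureCounts, and the builds GRCm38.p6 and mm10. Settings for strand and for reads with several matches are not given in those sources. The TruSeq RNA kit named in the labels' protocols does not mark strand.

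All 55450 identifiers matched GENCODE M21. Genes were kept by filterByExpr (minimum count 10, minimum total 15), scaled by TMM and tested by edgeR 4.0.16 under R 4.3.3 (glmQLFit, then glmQLFTest), genotype being the sole term. P-values were adjusted by Benjamini-Hochberg over 27939 genes (threshold 0.05). CPM uses effective library sizes, and RPKM the union of exons. Single values were compared by exact permutation. No 2 libraries agreed within sampling noise (chi-square per gene 11.8 to 94). The closest pair was heterozygous replicates 1 and 2 (11.8), whose titles differ only by a letter. Whether these 2 libraries are related is not given, so they may not be independent. Likeness did not follow genotype throughout. Heterozygous replicate 1 was closer to wild type replicate 1 (17.3) than to heterozygous replicate 3 (57.1). Wild type replicate 2 was closer to heterozygous replicate 3 (25.8) than to wild type replicate 1 (56.8). Limits for a count of 0 (3 counts) cover counting error only, since the reads carry no molecular identifiers.

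Alternatives were other scalings, filters, DESeq2 1.42.0, limma-voom (limma 3.58.1), the edgeR likelihood ratio test, a striatal covariate, other lengths and each library left out. High Xist and the astrocyte level were added after seeing the data. The receptors and lists were chosen with earlier results of these data known. The rule for names took all 7 receptors, Setd5, up to 3 genes of smallest p per list and 2 nearest genes per receptor, leaving out predicted models and genes on chromosome 18. Marker genes, Gm20387 and Gm28111 were named besides.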

Additional observations from a re-analysis of the deposited data

How the results depend on the processing

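Of 114 alternative values of the receptor log2 differences 108 kept their sign and 6 did not, and none passed edgeR's or another tool's adjusted threshold. Without the 2 libraries with high Xist the log2 difference was -0.03 for Grm2, 0.06 for Grm4 and -0.01 for Grm8. With the astrocyte marker level as a covariate that of Grm4 was 0.03. Leaving out 1 library at a time, Grm4 ran from -0.20 to 0.10 and Grm8 from -0.03 to 0.22, and both turned without wild type replicate 3. For both the cause was not tested.

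Among shares the Grm4 difference, 0.01 points, was -0.02 by longest transcript, -0.01 without length correction and -0.22 without Grm3, and -0.26 to 0.39 with 1 library left out. Without Grm3 the group II difference was 1.2 points and that of group I (Grm5) -3.48 points, against -0.75 with it. With 1 library left out, group I (Grm5) ran from -1.66 to 0.61 points, Grm6 from -0.0018 to 0.01 points and the log2 ratio of Grm7 to Grm8 from -0.14 to 0.10. The group III share kept its sign throughout, at 1.80 to 2.70 points.

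Over all genes 1 was called higher and 5 lower with every gene with at least 1 count tested, 16 and 46 by DESeq2, 1 and 1 by limma-voom with quality weights and 13 and 16 by the likelihood ratio test. With 1 library left out 0 to 2 were called lower. Setd5 itself passed the adjusted threshold in those 4 fits. In the list of signal termination genes DESeq2 called 1. Some named pathway genes also moved with a library other than wild type replicate 3 left out. The log2 difference of Homer1 was 0.18 without heterozygous replicate 1. That of Elfn1 was -0.10 without heterozygous replicate 3, and that of Arc 1.73 without wild type replicate 1. No paired analysis was possible because the labels give no replicate numbers shared between genotypes. Depth limits Grm6, with 2 to 8 counts a library.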
